A study of Mus musculus with 11 samples.

Results

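NF-kB subunits and the feedback inhibitors that NF-kB itself induces were followed as a set of 10 genes: Nfkb1, Nfkb2, Relb, Bcl3, Nfkbia, Nfkbiz, Tnfaip3, Tnip1, Birc3 and Irak3. They were named with earlier results of these data known, though by gene name and not by a measured value, and matched by Ensembl identifier to 10 of the 52636 genes in the count tables. RNA was sequenced from 11 single fetal livers of mouse embryos at E15.5, with no treatment. There were 3 WT livers, 2 labelled TNFR1KO (Tnfr1-/-), 3 labelled Casp8 MLKL dKO (Casp8-/- Mlkl-/-) and 3 labelled Casp8 TNFR1 dKO (Casp8-/- Tnfr1-/-). The mutations were germline knockouts kept on a C57BL/6 N background, so every cell of the embryo carried them, and the RNA is that of whole livers, in which fewer cells of a type and less RNA per cell cannot be told apart. The labels do not say which livers came from which litter, so p-values measure the spread between these livers. The question put to the 10 genes was whether the pathway is active in livers that lack TNFR1, the receptor through which TNF is best known to switch it on.

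NF-kB is a family of dimeric transcription factors held in the cytoplasm by IkB proteins. Receptors for TNF, interleukin-1 and microbial products activate the IKK kinases, which mark IkB for destruction and free the dimers to enter the nucleus. Among the genes that are then transcribed are the pathway's own subunits and brakes, so that transcripts such as Nfkbia and Tnfaip3 are widely read as a trace of recent NF-kB activity. In the fetal liver, hepatocytes, blood-forming cells, endothelial cells and macrophages can all respond in this way. Caspase-8 and MLKL act in cell death downstream of death receptors, and MLKL carries out necroptosis.

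The promoters that bear on these brakes are shown because NF-kB is known to act on them through short kB sites. RefSeq start sites in GRCm38.p6 were given for 7 of the 10 genes, in 11 windows, and were not at hand for Nfkb1, Relb and Nfkbiz. The 10-base NF-kB consensus was searched on both strands of the 250 bases before each start, as GGG, a purine, any pair of bases, a pair of pyrimidines and CC, and matches may overlap. A match was found for 4 of the 7 genes, Nfkbia, Tnfaip3, Tnip1 and Nfkb2, where 8.23% of all 27025 genes had one, and in 6 of the 11 windows, where 7.25% of all 32851 had one. Stretches of 130 bases before the start are printed for the first 3 and of 30 bases for Nfkb2, 5′ to 3′ on the gene's strand, with the matches in capitals.
Nfkbia: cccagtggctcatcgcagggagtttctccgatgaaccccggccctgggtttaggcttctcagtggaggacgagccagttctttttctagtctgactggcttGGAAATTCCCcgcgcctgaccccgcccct
Tnfaip3: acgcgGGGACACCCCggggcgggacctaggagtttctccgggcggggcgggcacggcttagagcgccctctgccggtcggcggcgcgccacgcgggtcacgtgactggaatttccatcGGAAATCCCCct
Tnip1: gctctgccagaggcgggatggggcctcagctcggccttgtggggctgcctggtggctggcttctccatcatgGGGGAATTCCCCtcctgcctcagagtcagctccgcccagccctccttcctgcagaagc
Nfkb2: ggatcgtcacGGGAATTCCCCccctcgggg
The Nfkbia stretch is chr12:55492648-55492777, that of Tnfaip3 chr10:19015411-19015540 and that of Tnip1 chr11:54962941-54963070, all on the minus strand, and none of these bases lies in an annotated exon. The Nfkb2 stretch is chr19:46304688-46304717 on the plus strand and lies in annotated exons of Nfkb2 and of an antisense gene. In Nfkbia the match starts 29 bases before the start site and reads GGGAATTTCC on the opposite strand. Tnip1 and Nfkb2 hold the same palindrome, GGGAATTCCC, with overlapping matches around it, and Nfkb2 has another match, GGGGCTTTCC, 11 bases before its start. The windows of Birc3, Bcl3 and Irak3 held no match to these letters, which says nothing about sites elsewhere. A match describes the sequence and is no measurement of binding.

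Counts on genes totalled 23129212 to 35819339 per liver. The 10 transcripts were well covered, from 49 counts for Relb in WT replicate 3 to 2713 for Nfkb1 in Casp8-/- Tnfr1-/- replicate 1. Levels are given as CPM, counts scaled to the size of each library, the latter adjusted by edgeR's TMM method. The targeted genes were looked at first. Casp8 measured 27.7 to 33.8 CPM in WT and Tnfr1-/- livers and 7.82 to 21.9 CPM in the 6 livers labelled Casp8-/-, so reads remained but lay lower in each. Mlkl measured 0.729, 1.22 and 1.03 CPM in the Casp8-/- Mlkl-/- livers and 3.68 to 24.6 CPM in the other 8. Tnfrsf1a, the gene for TNFR1, measured 49.8 and 50.5 CPM in the livers labelled Tnfr1-/- against 47.1 to 53.4 CPM in WT, and 76.9, 75.9 and 425 CPM in those labelled Casp8-/- Tnfr1-/-. Tnfrsf1a reads thus tell nothing of the Tnfr1 genotype, which rests here on the labels, and every statement below on livers that lack Tnfr1 is one on livers so labelled.

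Of the 11 livers, 2 stood apart. Casp8-/- Tnfr1-/- replicate 3 had a TMM factor of 0.757 and Casp8-/- Mlkl-/- replicate 1 one of 0.812, against 1.01 to 1.09 in the other 9. Replicate 3 also held 1600 CPM of 10 striated muscle transcripts, against at most 33.7 CPM elsewhere. It had 59817 counts of Xist, against 3 to 15 in the other 10, and 1 count of Y-linked transcripts, against 4091 to 7911. By these transcripts it was the only female liver, so it differed from the other 10 in sex as well. Casp8-/- Mlkl-/- replicate 1 held 236000 CPM of 8 hepatocyte markers, against 52200 to 112000 CPM in the others, and 1710 CPM of 12 macrophage markers, against 401 to 778 CPM.

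In livers labelled Tnfr1-/-, no difference from WT was detected for any of the 10 genes. Their CPM summed to 137 and 138 in the 2 Tnfr1-/- livers and to 139 to 143 in the 3 WT livers. The log2 fold changes ran from -0.28 for Nfkbia (95% interval -1.55 to 0.99) to 0.12 for Birc3, with a median of -0.06 beside 0 over all 17243 genes tested. None was called in edgeR's quasi-likelihood test at a Benjamini-Hochberg adjusted p under 0.05, where 0% of all genes were called higher. No member reached an unadjusted p under 0.05 in this fit either, and DESeq2 and limma-voom called 0 as well. In edgeR's fit of the 2 genotypes alone 2 members did, where 3084 of 16234 genes did. Without both livers that stood apart 2 did, where 3071 of 16958 genes did. With quality weights in limma-voom 1 did (3553 of 17243 genes), and without Casp8-/- Tnfr1-/- replicate 3 also 1 (895 of 17027 genes). The intervals are wide for most members, so that a change of 2-fold was not outside them for Relb or Nfkbia, whereas that of Nfkb1 ran from -0.21 to 0.32.

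In livers labelled Casp8-/- Tnfr1-/-, which also lack caspase-8, the 10 transcripts stood above both the Tnfr1-/- and the WT level. Against Tnfr1-/- livers, 5 of the 10 genes were called higher (Nfkb1, Nfkb2, Relb, Bcl3 and Irak3) and 0 lower, where 2.05% of all genes tested were called higher. Against WT livers 10 of 10 were called higher, where 5.1% of all genes were and 0.702% were called lower. The median log2 fold change of the 10 was 1.89 against Tnfr1-/- and 1.90 against WT livers, beside -0.01 and 0 over all genes, and these medians fell to 1.28 and 1.30 without Casp8-/- Tnfr1-/- replicate 3. Both comparisons use the same 3 Casp8-/- Tnfr1-/- livers and are not independent. The summed level was 303, 308 and 709 CPM in these livers, the last in replicate 3. All 10 log2 fold changes were positive in both comparisons under every alternative, but the number of calls hung on single livers. Against Tnfr1-/- livers it was 0 without Tnfr1-/- replicate 1 or 2, where 0.158% and 0.2% of all genes were called higher, and 8 without Casp8-/- Tnfr1-/- replicate 3, where 4.46% were. Against WT livers it was 5, 3 and 3 without WT replicate 1, 2 or 3, where 2.06%, 1.65% and 1.57% of all genes were called higher. The number also fell without Tnfr1-/- replicate 1. It was 10 without Casp8-/- Tnfr1-/- replicate 3, where 7.28% of all genes were called higher, at log2 fold changes of 0.71 for Nfkb1 to 2.12 for Bcl3.

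**Figure D1:**
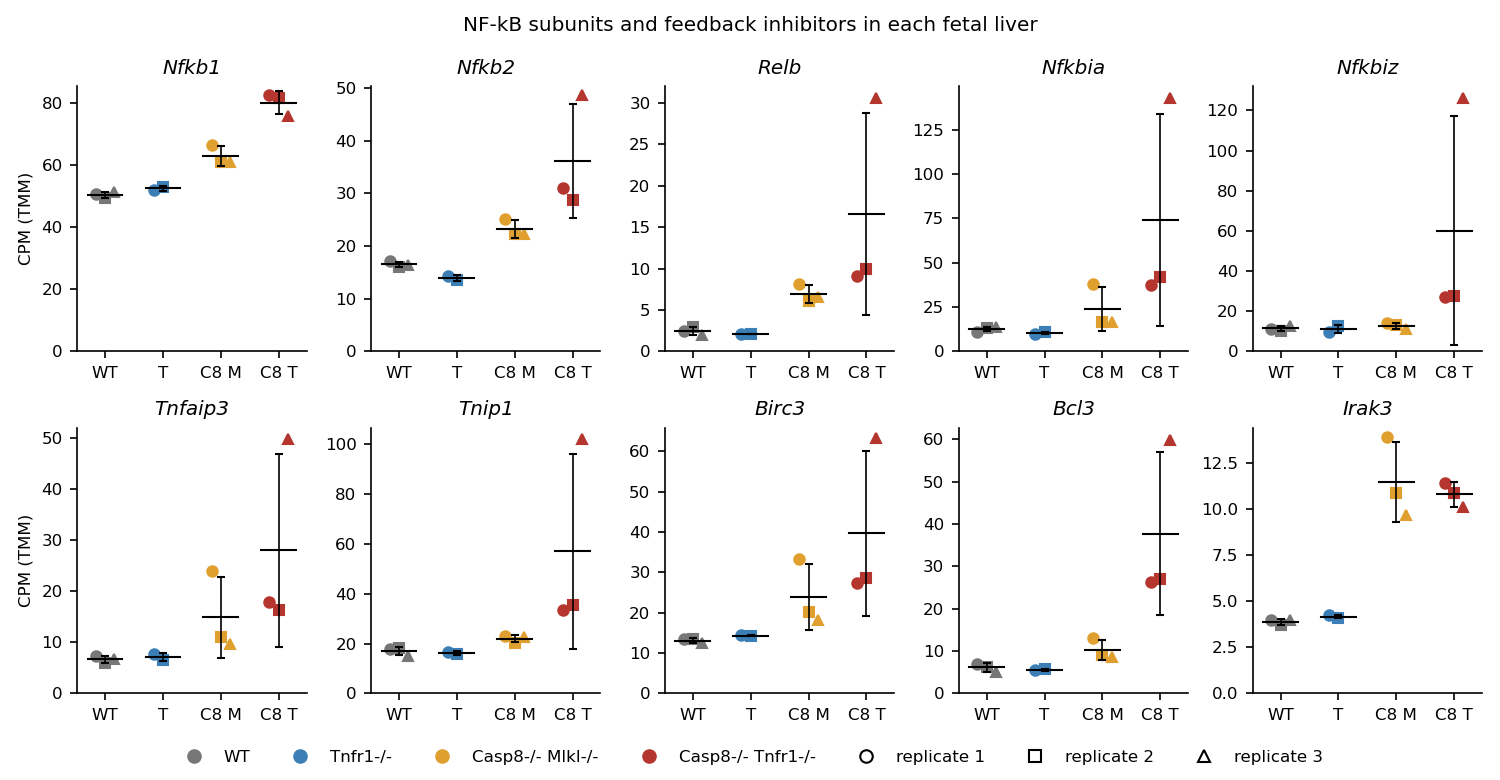
TMM-scaled CPM of the 10 genes in each of the 11 livers, on an axis that starts at 0 and differs between panels, for WT, Tnfr1-/- (T), Casp8-/- Mlkl-/- (C8 M) and Casp8-/- Tnfr1-/- (C8 T), with the mean and SD as bars. WT and Tnfr1-/- livers lie together in each panel, and Casp8-/- Tnfr1-/- replicate 3 is the highest liver for 8 of the 10 genes, but not for Nfkb1 or Irak3.

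Among the subunits, Nfkb1 (ENSMUSG00000028163, chromosome 3, 135584655 to 135691547), which encodes p105 and its product p50, was the most even. It measured 52.0 and 53.0 CPM in Tnfr1-/- livers, 50.8, 49.3 and 51.3 CPM in WT, 66.6, 61.1 and 61.1 CPM in Casp8-/- Mlkl-/- and 82.7, 81.7 and 75.9 CPM in Casp8-/- Tnfr1-/- livers. The 3 Casp8-/- Tnfr1-/- livers lay above all the others and the Casp8-/- Mlkl-/- livers between the groups. The log2 fold change was 0.61 ± 0.12 (SE) against Tnfr1-/- (edgeR adjusted p = 0.0306) and 0.67 ± 0.106 against WT livers (adjusted p = 0.00687). The former call was lost in 9 of the 11 fits that left out 1 liver (adjusted p up to 0.508), in which the log2 fold change was 0.58 to 0.65, and held without Casp8-/- Mlkl-/- replicate 1 or Casp8-/- Tnfr1-/- replicate 3.

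Nfkb2 (ENSMUSG00000025225, chromosome 19, 46304320 to 46312385) encodes p100 and p52, the subunit of the noncanonical branch. It measured 14.3 and 13.5 CPM in Tnfr1-/-, 17.1, 16.1 and 16.4 CPM in WT, 25.2, 22.2 and 22.2 CPM in Casp8-/- Mlkl-/- and 31.0, 28.8 and 48.6 CPM in Casp8-/- Tnfr1-/- livers. As for Nfkb1, no Casp8-/- Tnfr1-/- liver overlapped any other. Against Tnfr1-/- livers its log2 fold change was 1.38 ± 0.228 (edgeR adjusted p = 0.0149) and was 1.11 without replicate 3. Genes on the other strand cover 18.1% of its exonic bases, and the use of strand in counting is not given in the sources used here.

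Relb (ENSMUSG00000002983, chromosome 7, 19606217 to 19629438), the partner of p52, had the fewest reads of the members in WT livers and, with all livers in the fit, the largest log2 fold change of the 10 against both Tnfr1-/- and WT livers. Its level was 2.10 and 2.13 CPM in Tnfr1-/-, 2.46, 2.97 and 1.93 CPM in WT, 8.10, 6.10 and 6.57 CPM in Casp8-/- Mlkl-/- and 9.06, 9.98 and 30.6 CPM in Casp8-/- Tnfr1-/- livers. All 6 Casp8-/- livers lay above the 5 with caspase-8. The log2 fold change against Tnfr1-/- livers was 2.96 ± 0.539 (edgeR adjusted p = 0.0229) and 2.17 without Casp8-/- Tnfr1-/- replicate 3 (adjusted p = 0.00114). Without that liver Bcl3 came first, at 2.25 against Tnfr1-/- and 2.12 against WT livers, where Relb had 1.96.

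Bcl3 (ENSMUSG00000053175, chromosome 7, 19808462 to 19822770) encodes a nuclear IkB-like protein that binds p50 and p52 dimers on DNA. It measured 5.44 and 5.73 CPM in Tnfr1-/-, 7.06, 6.33 and 5.09 CPM in WT, 13.0, 9.12 and 8.67 CPM in Casp8-/- Mlkl-/- and 26.2, 27.1 and 59.9 CPM in Casp8-/- Tnfr1-/- livers. Each Casp8-/- Tnfr1-/- liver held more than any of the other 8. Its difference on the log2 scale was 2.75 ± 0.401 against Tnfr1-/- (edgeR adjusted p = 0.00751) and 1.88 ± 0.329 against Casp8-/- Mlkl-/- livers (adjusted p = 0.0236). Bcl3 was the only 1 of the 10 members called in the latter comparison, where 1.54% of all genes were called higher. That call was lost without Tnfr1-/- replicate 1 or without Casp8-/- Mlkl-/- replicate 2 or 3. Leaving out Casp8-/- Tnfr1-/- replicates 1, 2 and 3 gave 3, 2 and 4 members called, where 2.04%, 1.53% and 2.83% of all genes were called higher.

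Of the brakes, Nfkbia (ENSMUSG00000021025, chromosome 12, 55489410 to 55492647) encodes IkB-alpha, the classical inhibitor that re-exports NF-kB from the nucleus. It measured 10 and 10.8 CPM in Tnfr1-/-, 11.2, 13.2 and 13.6 CPM in WT, 38.1, 16.5 and 16.7 CPM in Casp8-/- Mlkl-/- and 37.3, 42.1 and 143 CPM in Casp8-/- Tnfr1-/- livers. The groups without caspase-8 overlapped, since Casp8-/- Mlkl-/- replicate 1 stood among the Casp8-/- Tnfr1-/- livers. The log2 fold change against Tnfr1-/- livers was 2.83 ± 0.63 and just missed the threshold (edgeR adjusted p = 0.0522), while that against WT livers was 2.55 ± 0.53 (adjusted p = 0.0229). Without Casp8-/- Tnfr1-/- replicate 3 the former was smaller, 1.93, and was called (adjusted p = 0.0184), and the latter was 1.66.

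Nfkbiz (ENSMUSG00000035356, chromosome 16, 55811375 to 55838899), which encodes IkB-zeta, a nuclear cofactor for a subset of NF-kB targets, differed from the rest in the Casp8-/- Mlkl-/- livers. It measured 9.73 and 12.5 CPM in Tnfr1-/-, 11.4, 10.2 and 12.8 CPM in WT, 14.2, 13.0 and 11.1 CPM in Casp8-/- Mlkl-/- and 27.0, 27.4 and 126 CPM in Casp8-/- Tnfr1-/- livers. It was the single member whose Casp8-/- Mlkl-/- livers overlapped with WT and Tnfr1-/- livers. Its log2 fold change against Tnfr1-/- livers was 2.43 ± 0.632 (edgeR adjusted p = 0.0911) and was 1.29 without replicate 3 (adjusted p = 0.00362). Against WT livers it was 2.39 ± 0.54 (adjusted p = 0.0323), and 1.25 without that liver.

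Tnfaip3 (ENSMUSG00000019850, chromosome 10, 19000910 to 19015657) encodes A20, a ubiquitin-editing enzyme that shuts off signaling upstream of IKK, and Tnip1 (ENSMUSG00000020400, chromosome 11, 54910785 to 54962917) encodes its partner ABIN1. Tnfaip3 measured 7.68 and 6.57 CPM in Tnfr1-/-, 7.37, 6.03 and 6.78 CPM in WT, 23.9, 11.1 and 9.62 CPM in Casp8-/- Mlkl-/- and 17.9, 16.3 and 49.8 CPM in Casp8-/- Tnfr1-/- livers. Tnip1 measured 16.7 and 15.6 CPM, 17.7, 18.1 and 15.1 CPM, 23.1, 20.2 and 22.7 CPM, and 33.3, 35.5 and 102 CPM in the same order. For Tnip1 the Casp8-/- Tnfr1-/- livers lay above all others, whereas for Tnfaip3 they overlapped with Casp8-/- Mlkl-/- replicate 1. Against Tnfr1-/- livers the log2 fold changes were 1.97 ± 0.548 for Tnfaip3 (edgeR adjusted p = 0.112) and 1.82 ± 0.439 for Tnip1 (adjusted p = 0.0724). Against WT livers both were called, at 2.05 (adjusted p = 0.0346) and 1.74 (adjusted p = 0.0275). Leaving out replicate 3 lowered the first to 1.26 (adjusted p = 0.0977) and the second to 1.09 (adjusted p = 0.00196) against Tnfr1-/- livers, and to 1.35 and 1.02 against WT livers.

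Birc3 (ENSMUSG00000032000, chromosome 9, 7848699 to 7873186) encodes cIAP2, a ubiquitin ligase of TNF receptor complexes. It measured 14.4 and 14.2 CPM in Tnfr1-/-, 13.4, 13.4 and 12.5 CPM in WT, 33.3, 20.1 and 18.3 CPM in Casp8-/- Mlkl-/- and 27.3, 28.5 and 63.2 CPM in Casp8-/- Tnfr1-/- livers. The ranges of the double mutants overlapped and both lay above those of WT and Tnfr1-/- livers. The log2 fold change was 1.47 ± 0.39 against Tnfr1-/- (edgeR adjusted p = 0.0974) and 1.59 ± 0.34 against WT livers (adjusted p = 0.0254). Of the 50-base stretches of its transcripts, 7.56% occur in other genes as well.

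Irak3 (ENSMUSG00000020227, chromosome 10, 120141648 to 120202130) encodes IRAK-M, a brake on Toll-like and interleukin-1 receptor signaling, and had a pattern of its own. It measured 4.24 and 4.10 CPM in Tnfr1-/-, 3.99, 3.69 and 3.98 CPM in WT, 13.9, 10.9 and 9.66 CPM in Casp8-/- Mlkl-/- and 11.4, 10.9 and 10.1 CPM in Casp8-/- Tnfr1-/- livers. The double mutants thus shared 1 range, well apart from the livers with caspase-8. Its log2 fold change was 1.38 ± 0.207 against Tnfr1-/- (edgeR adjusted p = 0.00929) and 1.48 ± 0.182 against WT livers (adjusted p = 0.00167). Between the double mutants it was -0.09 ± 0.176 (adjusted p = 0.812), with a 95% interval of -0.48 to 0.30, and its sign turned to 0.13 without the 2 livers that stood apart.

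**Figure D2:**
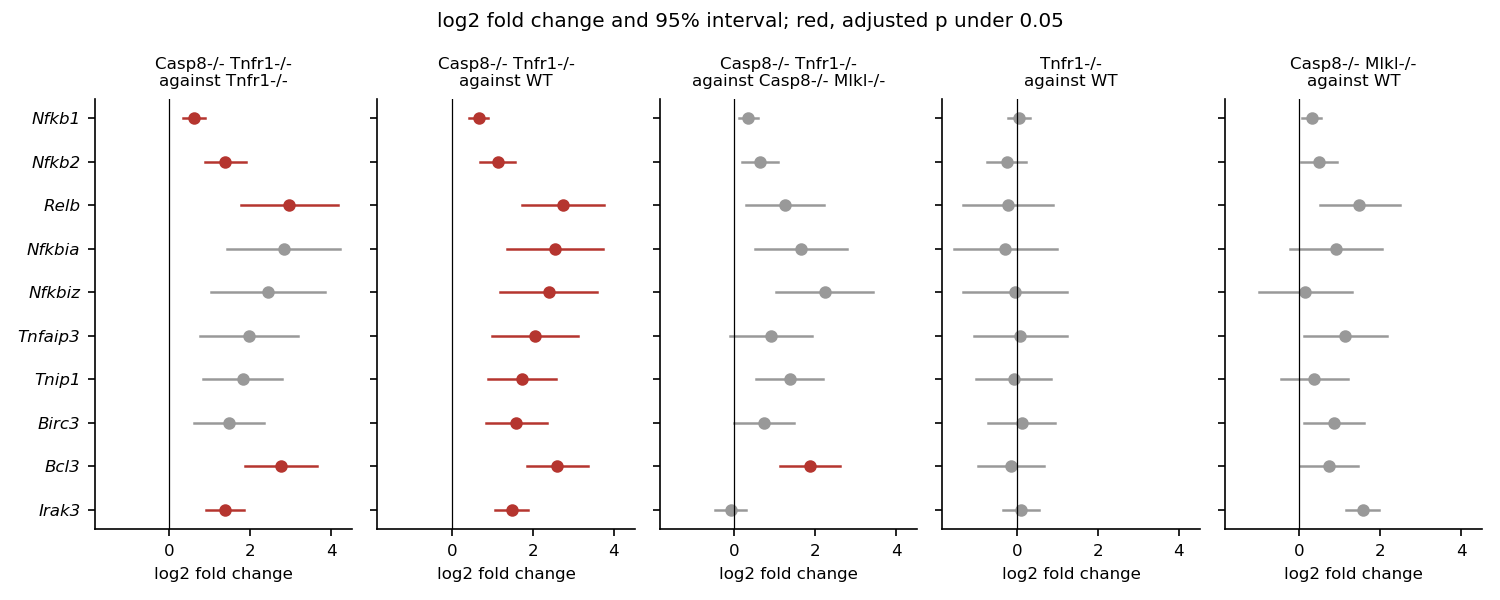
Log2 fold change (horizontal axis) and 95% interval of each gene in 5 comparisons, from edgeR's fit of the 4 genotypes, with red for an adjusted p under 0.05. The points lie to the right of 0 against Tnfr1-/- and WT livers for all 10 genes, around 0 for Tnfr1-/- against WT, and to the right of 0 but uncalled for Casp8-/- Mlkl-/- against WT.

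The 3 Casp8-/- Tnfr1-/- livers were also set against the other 8 without a model. For 6 of the 10 genes (Nfkb1, Nfkb2, Relb, Nfkbiz, Tnip1 and Bcl3) each of the 3 lay above all 8 others, where 7.43% of all genes tested did, and 3.32% lay below all 8 in each. For each of the 6 an exact two-sided permutation test gave p = 0.00606, the smallest that 165 splits allow. That value restates the order by which the 6 were picked and adds no support. The splits also treat the other 8 as alike, though they are WT, Tnfr1-/- and Casp8-/- Mlkl-/- livers. Nfkbia gave an exact p of 0.0121, Tnfaip3 and Birc3 gave 0.0182 and Irak3 gave 0.139. In all 10 genes the highest of the other 8 livers was Casp8-/- Mlkl-/- replicate 1, and without it 9 of the 10 genes lay above the remaining 7 livers, where 13.4% of all genes did.

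The members did not move alike between Casp8-/- Tnfr1-/- livers. Replicates 1 and 2 differed by at most 1.13-fold in any member. Replicate 3 was 0.923 times their mean for Nfkb1 and 0.906 times for Irak3, but 1.63 times for Nfkb2, 2.25 times for Bcl3, 3.60 times for Nfkbia and 4.63 times for Nfkbiz. It thus widened the spread for 8 of the 10 members, and without it 8 members were called higher than in Tnfr1-/- livers in place of 5, with 4.46% of all genes in place of 2.05%, although every one of these 8 but Nfkb1 and Irak3 then had a smaller log2 fold change. The 2 not called in that fit were Tnfaip3 and Birc3 (edgeR adjusted p = 0.0584).

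Casp8-/- Mlkl-/- livers, which carry TNFR1, held an intermediate level of most members. Their summed level was 259, 190 and 187 CPM. In 9 of the 10 genes, all but Nfkbiz, each of these livers lay above the 5 WT and Tnfr1-/- livers, where 5.61% of all genes tested did and 3.03% lay below in each. The difference from WT livers on the log2 scale was positive in 10 of 10, with a median of 0.80 beside 0.03 over all genes, and a range from 0.15 for Nfkbiz to 1.57 for Irak3. The median was 0.48 without Casp8-/- Mlkl-/- replicate 1. None was called by edgeR (0.0058% of all genes were called higher), although 7 had an unadjusted p under 0.05, where 971 of all 17243 genes did. DESeq2 called 2, where it called 0.458% of all genes higher. The smallest adjusted p was that of Irak3, 0.0521. With both livers that stood apart left out, an alternative chosen after seeing the data, 8 of the 10 were called, where 3.23% of all genes were called higher, and Nfkbiz and Tnip1 were not.

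Between the double mutants, the difference on the log2 scale was positive in 9 of 10 members, from 0.35 for Nfkb1 to 2.23 for Nfkbiz, with a median of 1.08 beside -0.03 over all genes. That median fell to 0.43 without Casp8-/- Tnfr1-/- replicate 3 and was 0.65 without both livers that stood apart. Nfkbiz (edgeR adjusted p = 0.0788) and Tnip1 (adjusted p = 0.118) came next after Bcl3. Without the 2 livers that stood apart, 9 of the 10 were called higher, where 12% of all genes were, at log2 fold changes between 0.44 for Nfkb1 and Nfkb2 and 1.59 for Bcl3, and Irak3 was the exception (adjusted p = 0.594). Replicate 3 alone moved the value of Nfkbiz from 2.23 to 1.10 and that of Tnfaip3 from 0.91 to 0.21.

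**Figure D3:**
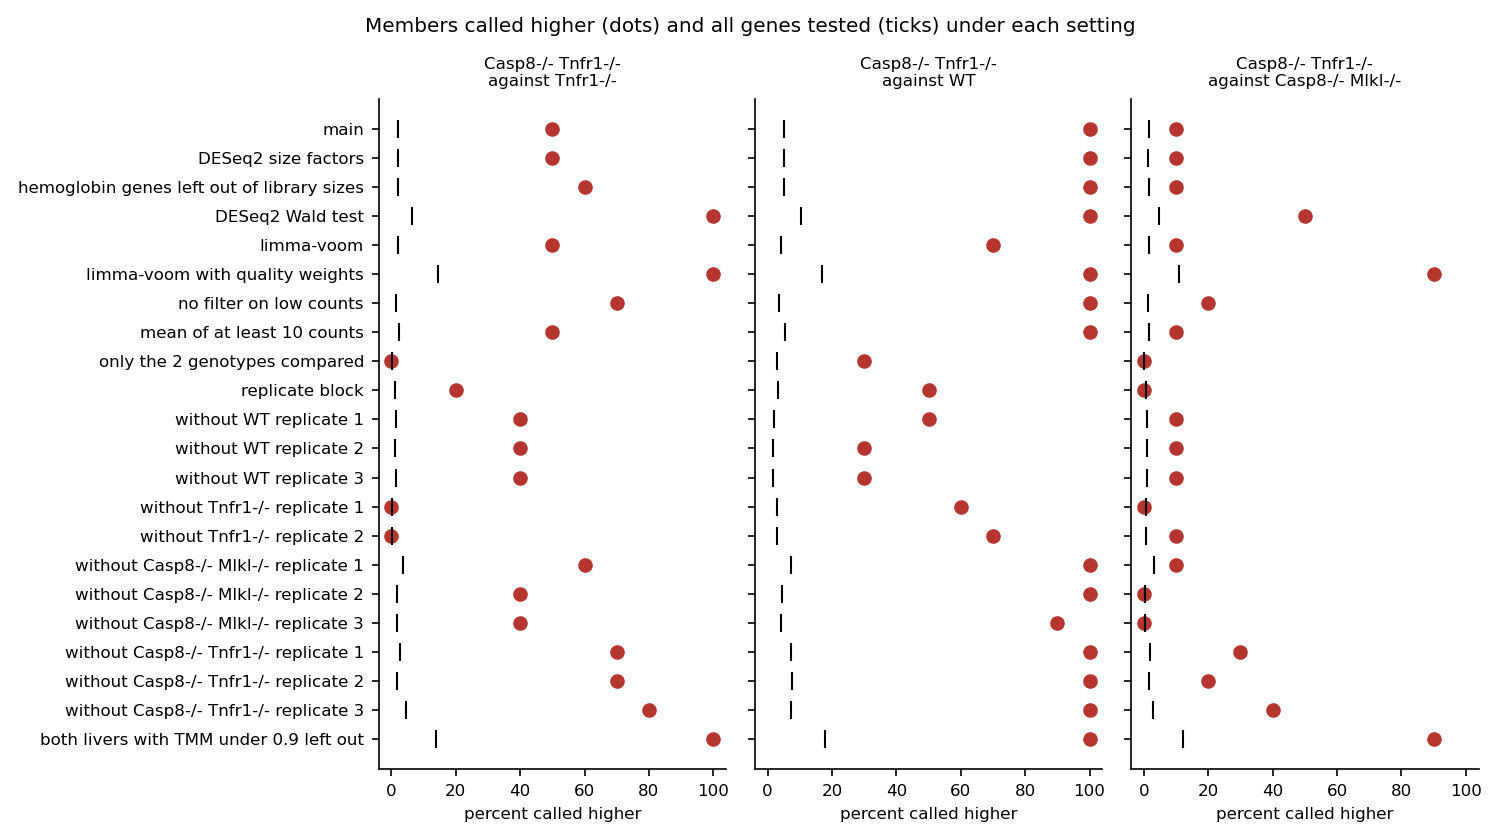
Share of the 10 members called higher (dots) and of all genes tested (ticks), in percent on the horizontal axis, for each alternative processing or left-out liver, in the 3 comparisons of Casp8-/- Tnfr1-/- livers. The share of members lies above that of all genes in most settings, and falls to 0 against Tnfr1-/- livers when either Tnfr1-/- liver is left out or when only the 2 genotypes are fitted.

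Levels per kilobase, CPM divided by the deposited gene length, allowed the members to be ranked against each other. In WT livers Nfkb1 stood first at 12.2 CPM per kb, ahead of Nfkbia at 8.02 and Tnip1 at 5.62, and the ranges of these did not overlap. Nfkb2 at 5.02 CPM per kb overlapped with Tnip1. Relb, Irak3 and Tnfaip3 came last at 1.11, 1.21 and 1.46 CPM per kb, and the range of Relb overlapped with both others. Tnfr1-/- livers kept the order of the first 4, with Nfkb1 at 12.7 and Nfkbia at 6.60 CPM per kb. In Casp8-/- Mlkl-/- livers the means of Nfkb1 and Nfkbia were 15.3 and 15.1 CPM per kb. In Casp8-/- Tnfr1-/- livers Nfkbia came first at 47.0 CPM per kb (23.6 to 90.5), followed by Bcl3 at 20.4, Nfkb1 at 19.4 and Tnip1 at 18.8, and Irak3 came last at 3.36. The ranges of the first 4 overlapped there, except that of Nfkbia with that of Nfkb1. Without replicate 3, Nfkb1 at 19.9 CPM per kb stood above Bcl3 at 14.4. By the deposited RPKM, too, Nfkbia alone ranked above Nfkb1 there.

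**Figure D4:**
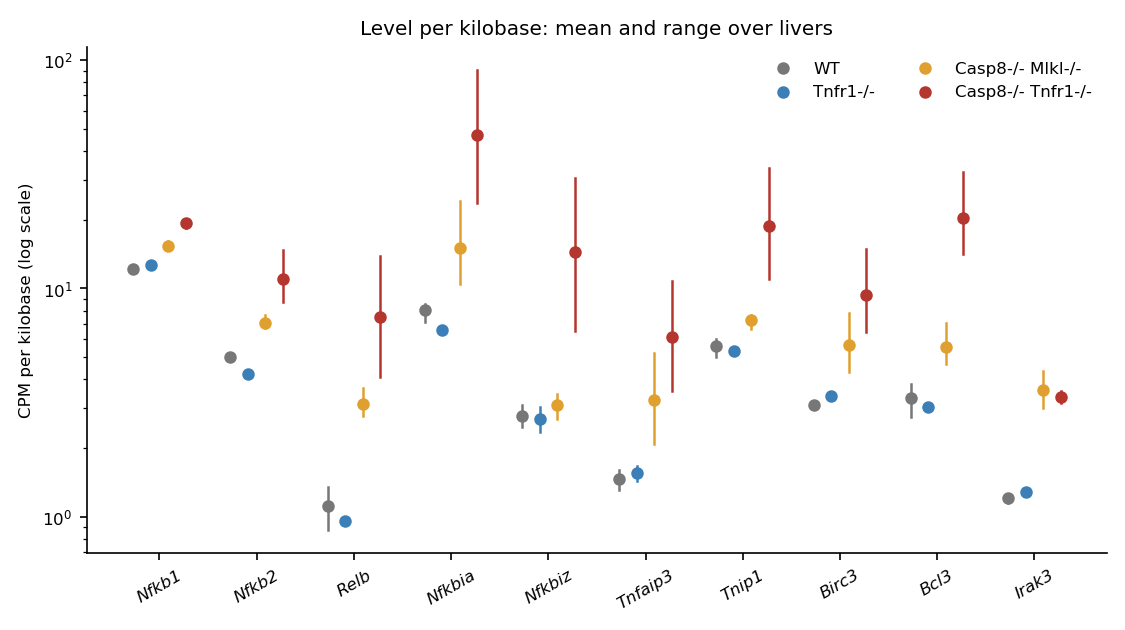
Mean level of each gene in CPM per kilobase on a log axis, with the lowest and highest liver of each genotype as a vertical line. Nfkb1 ranks first in WT and Tnfr1-/- livers, and Nfkbia ranks first in Casp8-/- Tnfr1-/- livers.

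Across the 11 livers, the genes whose log2 CPM followed the mean of the 10 members most closely were Mvp (Pearson's r = 0.991), Cd14 (0.990), Rnf19b (0.987), Iqgap1 (0.986) and Elovl7 (0.984). Mvp encodes the major vault protein and Cd14 the co-receptor for bacterial lipopolysaccharide. These values describe 11 livers of 4 genotypes, in which replicate 3 is an extreme point shared by all, and carry no test.

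Other parts of the pathway were examined by lists that name its components. Among 5 further NF-kB and IkB proteins, 2 were called higher than in Tnfr1-/- livers and 0 lower, where 2.05% of all genes were called higher. The median log2 fold change of the 5 was 0.93 (0.70 without Casp8-/- Tnfr1-/- replicate 3). Nfkbie, which encodes IkB-epsilon, measured 2.32 and 2.24 CPM in Tnfr1-/-, 6.32, 5.55 and 6.15 CPM in Casp8-/- Mlkl-/- and 6.95, 6.50 and 7.57 CPM in Casp8-/- Tnfr1-/- livers, at a log2 fold change of 1.62 against Tnfr1-/- livers (edgeR adjusted p = 0.00499). As with Irak3, its value between the double mutants was small, 0.22, with a 95% interval of -0.19 to 0.63. Nfkbid, which encodes IkB-NS, was called at 1.41 (adjusted p = 0.0483). Rela, the main transactivating subunit, had a log2 fold change of 0.39 (95% interval -0.02 to 0.79) and Rel one of 0.93 (adjusted p = 0.111).

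Of 22 IKK subunits, kinases and adaptors, 1 was called higher than in Tnfr1-/- livers and 0 lower, where 2.05% of all genes were called higher, with a median log2 fold change of 0.05. Set against WT livers, 3 of the 22 were called higher, where 5.1% of all genes were. The IKK subunits Chuk, Ikbkb and Ikbkg had log2 fold changes of -0.06, 0.03 and 0.02. The gene called was Myd88, the adaptor of Toll-like and interleukin-1 receptors, with 22.7 and 23.0 CPM in Tnfr1-/- and 47.5, 52.1 and 34.2 CPM in Casp8-/- Tnfr1-/- livers (log2 fold change 0.97 ± 0.181, edgeR adjusted p = 0.0254). Irak4, the kinase that Myd88 recruits, and Rnf31, a subunit of the linear ubiquitin ligase, were called against WT livers, at 0.94 (adjusted p = 0.013) and 0.99 (adjusted p = 0.0405), and had 0.80 (adjusted p = 0.0778) and 0.91 (adjusted p = 0.135) against Tnfr1-/- livers. Map3k14, the kinase NIK of the noncanonical branch, had the highest value of the list against Tnfr1-/- livers, 1.23 (adjusted p = 0.178). Of 9 tested genes among 10 further brakes, 1 was called higher and 0 lower, with a median of 0.47 (0.20 without Casp8-/- Tnfr1-/- replicate 3). It was Zc3h12a, which encodes Regnase-1, an RNase that degrades inflammatory mRNAs, with 2.87 and 2.39 CPM in Tnfr1-/- and 13.0, 10.9 and 16.4 CPM in Casp8-/- Tnfr1-/- livers (log2 fold change 2.35 ± 0.263, adjusted p = 0.00199).

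Inducible targets of NF-kB outside the set spread more widely than the members. Of 28 tested targets, 12 were called higher than in Tnfr1-/- livers and 0 lower, where 2.05% of all genes were called higher. Some targets lay near the floor in other genotypes, such as Ccl20, at 0 counts in WT replicates 1, 2 and 3. Nos2 was at 0 in WT replicate 1, and Cxcl2 and Sele in WT replicate 2. Such genes can pass the filter through the livers where they are high and then raise the median. The median log2 fold change of the 28 was 3.53 (3.11 without Casp8-/- Tnfr1-/- replicate 3). The values ran from -0.21 for Vcam1 to 9.57 for Nos2 (4.89 without replicate 3), neither of which was called with all livers, with 17 of the 28 above and 11 below the members' median, and the difference between the lists was not tested. Ccl2, a chemokine for monocytes, measured 0.328 and 0.304 CPM in Tnfr1-/- and 21.4, 23.8 and 64.4 CPM in Casp8-/- Tnfr1-/- livers (log2 fold change 6.83 ± 0.631, edgeR adjusted p = 0.00059, and 6.14 without replicate 3). Cxcl10, a chemokine that interferons also induce, measured 3.47 and 2.54 CPM against 125, 103 and 92.6 CPM (log2 fold change 5.14 ± 0.239, adjusted p = 2.04e-05). Ccl4, another chemokine, had only 8 counts in both Tnfr1-/- livers together and measured 10.1, 11.5 and 4.78 CPM in Casp8-/- Tnfr1-/- livers, a ratio of 74.1 (95% counting interval 37.4 to 172). Sele, the endothelial adhesion molecule E-selectin, had 5 counts there and measured 2.99, 2.75 and 26.4 CPM, a ratio of 101 (43.2 to 313), which was 36.2 (15.2 to 113) without replicate 3. These intervals cover counting error and not the spread between livers. Lcn2, an iron-binding protein of neutrophils and stressed hepatocytes, measured 64.2 and 57.8 CPM against 1100, 1220 and 3250 CPM (log2 fold change 4.93 ± 0.933, adjusted p = 0.0268, and 4.25 without replicate 3). Over the 4 lists 16 genes were called higher, where 2.05% of all genes were. The number was 10 without WT replicate 2, where 1.27% of all genes were called higher. It was 24 without Casp8-/- Tnfr1-/- replicate 3, where 4.46% were. The number also fell without either Tnfr1-/- liver, as did that of all genes. In Tnfr1-/- against WT livers none of the 64 tested genes of the lists was called in either direction.

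**Figure D5:**
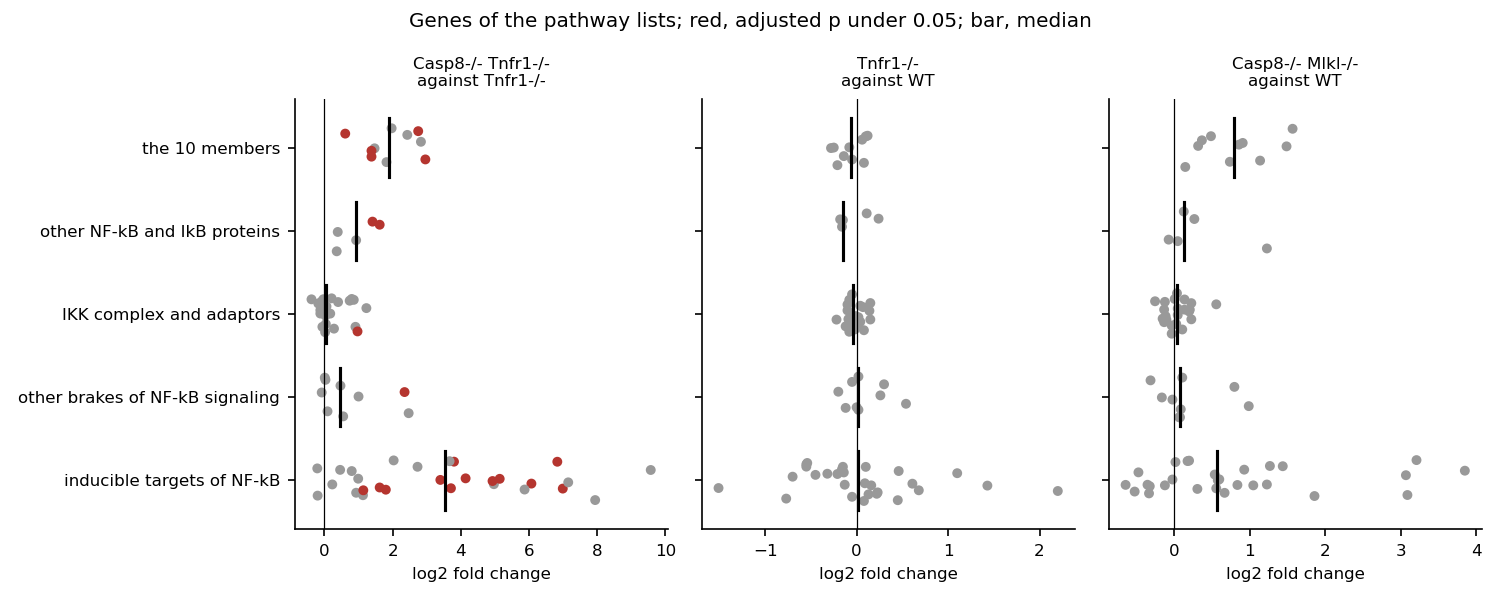
Log2 fold change (horizontal axis, with its own range in each panel) of the 10 members and of each tested gene of 4 lists of pathway genes in 3 comparisons, with the median as a bar and red for an edgeR adjusted p under 0.05. The inducible targets have a median of 3.53 and the IKK complex and adaptors one of 0.05 against Tnfr1-/- livers.

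Markers of other cells are given as measured, and only some of the lists moved with the 10 genes. In Casp8-/- Tnfr1-/- against Tnfr1-/- livers the median log2 fold change was 2.87 for neutrophil and 6.21 for striated muscle markers. It was 0.26 for endothelial, -0.09 for hepatocyte, -0.34 for erythroid, -0.48 for macrophage and -1.5 for B lineage markers. The summed level of 10 neutrophil markers was 5310, 6550 and 14800 CPM in Casp8-/- Tnfr1-/- livers, 3440, 1330 and 1450 CPM in Casp8-/- Mlkl-/- and 1140 to 1650 CPM in WT and Tnfr1-/- livers, and 10 of 10 markers had a positive log2 fold change against Tnfr1-/- livers, of which 1 was called. In each double mutant the liver with the highest summed level of the 10 members also had the highest hepatocyte, endothelial and B lineage sums. Endothelial markers summed to 644 CPM in Casp8-/- Mlkl-/- replicate 1 and to 836 CPM in Casp8-/- Tnfr1-/- replicate 3. The macrophage, erythroid and muscle sums were each highest in that liver in only 1 of the double mutants. In both, that liver also had the highest neutrophil sum. In Casp8-/- Tnfr1-/- replicate 3 the neutrophil sum was mostly that of S100a8, S100a9, Ngp and Ltf. The granule genes Mpo, Elane and Prtn3 were lower there, at 53.4, 14.4 and 35.4 CPM. They measured 672 and 819, 115 and 143, and 173 and 259 CPM in replicates 1 and 2. The mean log2 CPM of the 10 neutrophil markers was 8.07, 8.39 and 8.37 in the Casp8-/- Tnfr1-/- livers. The 12 macrophage markers summed to 545, 509 and 401 CPM in Casp8-/- Tnfr1-/- livers and to 565 to 720 CPM in WT and Tnfr1-/- livers, with Vsig4 at 0 counts in replicates 1 and 3. Their part in the levels of the 10 genes was not tested. Muscle transcripts summed to 33.7 and 17.2 CPM in Casp8-/- Tnfr1-/- replicates 1 and 2, against 14.1 to 21.8 CPM in livers of the other genotypes. With only these replicates, the log2 fold changes of the 10 genes against Tnfr1-/- livers were 0.65 to 2.25. A part of muscle tissue in the levels was not tested.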

How the data were processed

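The members and the lists were chosen with earlier results of these data known. The submitters' processing notes name GSNAP and the mouse genome GRCm38, and the paper's methods give limma on uniquely mapped reads for differential expression. The deposited counts are, as the authors made them, whole numbers of reads per Ensembl gene without normalization, beside a gene length in bases. The RPKM values that the authors deposited divide by that length and by a read total per liver, and were used only to rank the members. The counting tool, the annotation release and the use of strand are not given in the sources used here, and the kit and sequencer named in the paper differ from those in the labels. GENCODE M 21 gave names and positions, and RefSeq (GRCm38.p6) the promoters.

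Library totals of 23129212 to 35819339 counts set the precision, and limits on counts cover counting error only. Genes with enough reads by filterByExpr (minimum count 10) were tested, 17243 of 52636, in 1 fit of the 4 genotypes with edgeR 4.0.16 (TMM, glmQLFit, glmQLFTest), Benjamini-Hochberg adjusted over all of them, with a threshold of 0.05. The common biological coefficient of variation was 33.3%. Log2 CPM used a prior count of 2. Alternatives were DESeq2's size factors, library sizes without hemoglobin genes, DESeq2 1.42.0, limma-voom (limma 3.58.1) with and without quality weights, no filter, a minimum mean of 10 counts, fits of the compared genotypes alone, the replicate number as a block, and each liver left out in turn. Leaving out both livers with TMM factors under 0.9, and giving the lists' medians and the ranks per kilobase with livers left out, was chosen after seeing the data. Named genes were all members, up to 5 called genes per pathway list with the largest changes against Tnfr1-/- livers, the 5 genes most correlated with the members, the targeted genes and markers at 0. Rela, Rel, the IKK subunits, Irak4, Rnf31, Map3k14, Vcam1 and Nos2 are named beside the called genes of their lists, after their values were seen. Xist and Y-linked transcripts are given for the liver that stood apart, also after their values were seen. No pair of libraries was the same (chi-square per degree of freedom of at least 6.47). The scripts were tested on simulated data.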

Additional observations from a re-analysis of the deposited data

How the results depend on the processing

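Precision is limited by groups of 2 and 3 livers and by 2 livers that stand apart. Members called higher, of 10, numbered 5 against Tnfr1-/-, 10 against WT and 1 against Casp8-/- Mlkl-/- livers, and none were called in Casp8-/- Mlkl-/- or Tnfr1-/- against WT livers. The first number was 10 with DESeq2's Wald test, with quality weights in limma-voom and without the 2 livers of low TMM factor, where 6.42%, 14.6% and 13.9% of all genes were called higher in place of 2.05%. It was 2 with a replicate block (1.06% of all genes) and 0 in fits of only the 2 genotypes (0.316%). The second was 3 in fits of only the 2 genotypes (2.8% of all genes) and 5 with the block (3.09%). The third was 5 with DESeq2 (4.55% of all genes), 9 with quality weights (11%) and 2 with no filter (1.32%). It was 0 in fits of the 2 genotypes (0.0612%), 0 with the block (0.754%) and 9 without both livers (12%). Casp8-/- Mlkl-/- against WT gave 1 with DESeq2's size factors (0.0174% of all genes), with no filter (0.0373%) and with a mean of at least 10 counts (0.0184%). It gave 2 with DESeq2 (0.458%), 7 with quality weights (3.2%) and 8 without both livers (3.23%). Tnfr1-/- against WT gave 0 under each of the 21 alternatives. The pathway lists' 16 calls against Tnfr1-/- livers became 35 with quality weights, where 14.6% of all genes were called higher in place of 2.05%. They became 35 without both livers (13.9% of all genes) and 3 in fits of the 2 genotypes (0.316%). Members in which each Casp8-/- Tnfr1-/- liver lay above all others numbered 6 with 3 such livers against 8 and 10 with 2 against 7, once both livers were left out, where 18.7% of all genes did so in place of 7.43%. Members ranked above Nfkb1 per kilobase in Casp8-/- Tnfr1-/- livers numbered 1 by deposited RPKM and 1 without both livers, in place of 2. The causes were not tested.

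Leaving out each liver in turn gave 0 to 8 calls against Tnfr1-/-, 3 to 10 against WT, 0 to 4 against Casp8-/- Mlkl-/- livers, 0 to 2 for Casp8-/- Mlkl-/- against WT 2 to 24 for the pathway lists and 1 to 3 for the members ranked above Nfkb1, the lowest without Casp8-/- Tnfr1-/- replicate 3. An arm left with 1 liver is assumed to vary like the other groups. Signs changed only for log2 fold changes near 0. Irak3 between the double mutants was 0.14 with quality weights, 0.13 without both livers, and -0.18 to 0.07 when single livers were left out, the highest without Casp8-/- Mlkl-/- replicate 1. For Tnfr1-/- against WT, Nfkbiz was 0.21 with the block and -0.24 to 0.12 with livers left out, with 0.04 without WT replicate 3 and 0.12 without Tnfr1-/- replicate 1. Tnip1 was 0.06 with the block, and Tnfaip3 lay between -0.04, without Tnfr1-/- replicate 1, and 0.19 with livers left out. Another scaling moved the median log2 fold change of all genes by at most 0.015. Whether the replicate numbers pair the livers cannot be told. Deviations of same-numbered livers correlated at -0.297 to 0.275, but were not set beside those of differently numbered livers. The block lowered the calls against Tnfr1-/- livers to 2.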

Other observations

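Of the inducible targets, Csf2 (granulocyte-macrophage colony stimulating factor), Bcl2a1b and Bcl2a1d were listed at 0 counts in all 11 livers, and Csf3 was at 0 in 8 of them. Bcl2a1b and Bcl2a1d are near-identical copies, and the study used uniquely mapped reads, so a count of 0 in them does not show that they were not transcribed. Tnip3, a brake related to Tnip1, was too low to test, with 9, 18 and 1 counts in Casp8-/- Tnfr1-/- livers, 4, 3 and 6 in Casp8-/- Mlkl-/- livers and 0 or 1 in each of the other 5.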
